A study of Oryza sativa with 12 samples.

Results

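The genes described here are the 86 that were listed for the pistil/stamen primordium forming stage only and that were higher under long days (LD) than under short days (SD) in leaves of Nongken 58S. Nongken 58S is a photoperiod-sensitive genic male sterile *japonica* rice, whose pollen aborts when the inflorescence develops in LD and regains part of its fertility in SD. The members were chosen by their signals: a gene had to stand in the authors' list for this stage, be absent from the list for the earlier glume primordium differentiation stage, and have a mean of 3 P-SSD2 signals below the mean of 3 P-SLD2 signals. Of 201 listed genes, 103 were higher in LD. Among those, 14 were also listed at the glume stage and 3 were left out by name, which left the 86 members.

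The study placed RNA of the second fully expanded leaf on 12 Affymetrix rice genome arrays, with 3 biological repeats in each of 4 groups. P-SSD2 is the pistil/stamen stage in SD of 10 h light and 14 h dark, P-SLD2 is the same stage in LD of 15 h light and 9 h dark, and G-SSD2 and G-SLD2 are the same day lengths at the glume stage. All plants of all groups were Nongken 58S grown under natural conditions, all had first received 10 to 12 days of SD that induced flowering, and they were parted into SD and LD when secondary branches of the inflorescence differentiated. Every leaf was taken at a single clock time in the night, so no value here speaks of other hours of the day. The number of plants behind an array and their age are not given in the sources used here.

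Rice measures day length in the leaf, where light receptors act on the circadian clock and on regulators of flowering, and a mobile signal travels from the leaf to the shoot apex. In photoperiod-sensitive male sterile lines the day length perceived during inflorescence development bears on whether the anthers later form fertile pollen. Transcript differences in the leaf are therefore differences in the organ that perceives the treatment and not in the anther.

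Because the same 6 signals chose the members, every difference below is a description and carries no test. Signals are linear intensities from the authors' table, and a fold is the mean LD signal over the mean SD signal. A standard error, where given, is that of the log2 difference in a linear model over all 201 listed genes. The model draws each gene's spread toward that of the listed genes, so the error is not that of the gene's own repeats alone. The list keeps genes with a fold of at least 2 in either direction. The paper also describes a t-test for genes past this cut, and it counts fewer differentially expressed genes at this stage than 201. A listed gene is therefore not necessarily among those the paper counts. LOC_Os12g36930, a protein without a known function, lay just inside with a mean of 96.6 in SD and 193 in LD, a ratio of SD to LD of 0.4996. The nearest listed gene on the other side, LOC_Os01g21420, was higher in SD, with means of 310.3 and 154.5 and a ratio of 2.01. Absence from the glume list says only that a gene was not on it. The members' glume signals were not analysed here, because the table of all probe sets carries no gene names, and no difference between the stages was tested.

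The arrays were not equally alike. Over 25360 probe sets, the P-SSD2 repeats correlated with each other at 0.80 (repeats 1 and 3) to 0.87 (repeats 2 and 3), and the P-SLD2 repeats at 0.86 to 0.92. On the array of P-SSD2 repeat 1, a probe set for the 3' end of the bioD hybridisation control read 143, against 1937 to 2639 on the other 11 arrays, while another probe set for the same end read 2274. The probe sets could not be read as leaf markers, since none is paired with a gene.

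The folds of the 86 members ran from 2.00 to 6.03, with a median of 2.39 and quartiles of 2.16 and 2.94. Most were close to the threshold: 49 lay below 2.5, 18 between 2.5 and 3, 12 between 3 and 4, 4 between 4 and 5, and 3 above 5. On the log2 scale the median difference of SD minus LD was -1.35, and the median standard error was 0.40. In bulk leaf RNA, fewer cells of a type and less RNA per cell cannot be told apart.

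In 78 of the 86 members every LD signal lay above every SD signal, so the groups did not overlap. Over all 25360 probe sets, 4.84% had LD signals all above the SD signals, and among the 1058 of them with a mean in SD of at most 0.5 of that in LD the share was 48.4%. The rule used this contrast, and nothing is read from the count. The count of members rests on the authors' signals of listed genes, and the shares over probe sets on quantile normalized signals. On the authors' signals, the groups did not overlap in 90.7% of the members. That share was 86.4% of the 81 genes listed at this stage only and higher in SD. It was 85.7% of the 14 listed at both stages and higher in LD. In 82 members SD was below LD in all 3 same-numbered pairs of arrays, and in the other 4 it was below in 2 pairs. For the 78 members without overlap this is so by construction, and no share over other genes is given beside the pair counts. The separation was wide in few members: in 12 the lowest LD signal was at least 2 times the highest SD signal, and the median of this quotient was 1.31.

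**Figure D1:**
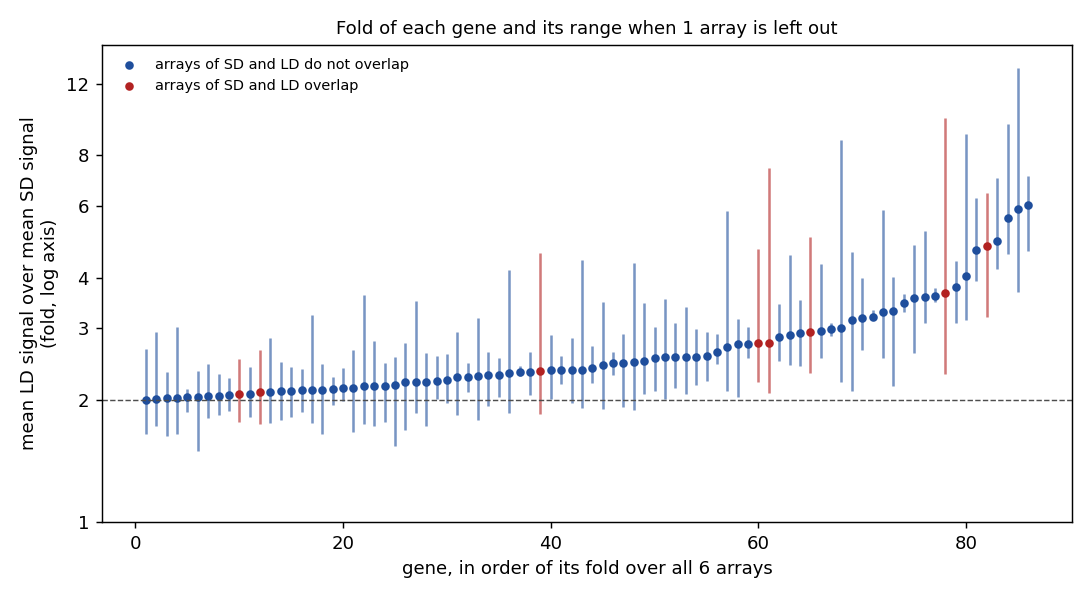
Fold of each of the 86 genes (points; mean LD signal over mean SD signal, log axis), in order of size, with the range of the fold when each of the 6 arrays is left out in turn (lines). The dashed line marks a fold of 2, and the 8 genes whose SD and LD arrays overlap are red. No line reaches 1, which for the genes without overlap is so by construction.

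Relative to the mean, the spread of the members was larger in SD than in LD. The coefficient of variation had a median of 35.7% over the 3 SD arrays and of 22.4% over the 3 LD arrays, and it was larger in SD in 54 members. It exceeded 50% in SD in 29 members. This coefficient divides by the mean, and the rule chose genes with the lower mean in SD. No such count over other genes is given beside these, so nothing is read from them. The SD signals were also dim, with a mean under 50 in 21 members and under 100 in 47, and in 15 members no SD signal reached 50. With signals under 50 set to 50, the fold of 16 members dropped under 2, and that of 8 members was smaller by more than 1.5 times. Each of those 8 is given with its value below. At the other end, 8 members had a coefficient of variation under 15% in both groups, among them a lipase family protein, a ubiquitin family protein and pr5, described below.

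A single SD array often stood above the others. In 24 members the highest SD signal was more than 2 times the second highest, and the array was repeat 3 in 16 of them, repeat 2 in 6 and repeat 1 in 2. Repeat 3 was the highest SD array in 52.3% of the members, repeat 2 in 32.6% and repeat 1 in 15.1%. Among the probe sets with a ratio of at most 0.5 the shares had the same order, at 45.1%, 38.0% and 16.9%. Over all 25360 probe sets the order was another, with repeat 3 the highest in 33.9%, repeat 2 in 27.3% and repeat 1 in 38.8%. At the low end, repeat 1 was the lowest SD array in 44 members (51.2%), repeat 2 in 29 and repeat 3 in 13. Among the probe sets with a ratio of at most 0.5, repeat 1 was the lowest in 57.1%, repeat 2 in 18.8% and repeat 3 in 24.1%. The order was not particular to the members. In the 14 genes listed at both stages and higher in LD, repeat 3 was the highest SD array in 9. In the 81 genes listed at this stage only and higher in SD it was reversed, with repeat 1 the highest in 45 and repeat 3 the lowest in 49. Leaving out 1 array moved the fold of 19 members by more than 1.5 times, and each of these is given with its value below. The lowest fold that any member kept without 1 array was 1.49, and 39 members had a fold under 2 without some array.

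**Figure D2:**
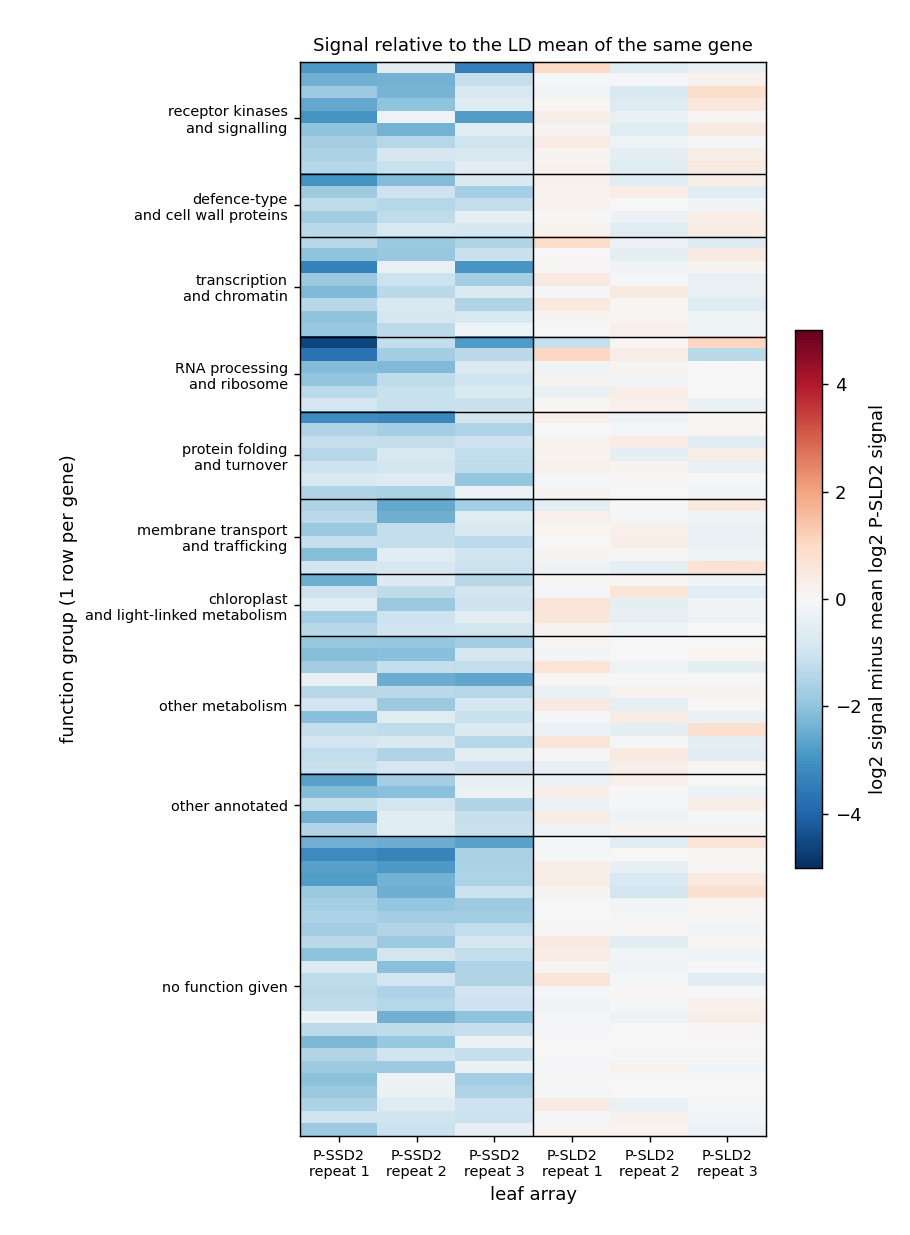
Log2 signal of each gene on the 6 leaf arrays of the pistil/stamen stage, relative to the mean log2 P-SLD2 signal of the same gene (colour scale), with 1 row per gene, grouped by function and ordered by fold within a group. The SD columns are blue in nearly every row, palest where 1 SD array reached the LD signals, and repeat 3 is the highest SD array in 45 of 86 genes.

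By the annotations in the table, 62 of the 86 members had a function and 24 had none. They fell into 10 groups, of which the largest with a function were other metabolism (11 genes), receptor kinases and signalling (9), transcription and chromatin (8) and protein folding and turnover (7). The 81 genes that were listed at this stage only and were higher in SD gave 52 with a function. Among those, membrane transport and trafficking had 13 genes, against 6 of the 86 members, and receptor kinases and signalling had 2, against 9. These counts were not tested. The folds of the 81 SD-higher genes reached 65.1, with a median of 3.56, and 24 of them were at least 5, against 3 of the 86 members. The 3 genes higher in LD that were left out by name are not in this count, and their folds are not given here. The comparison is therefore not one of all listed genes.

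**Figure D3:**
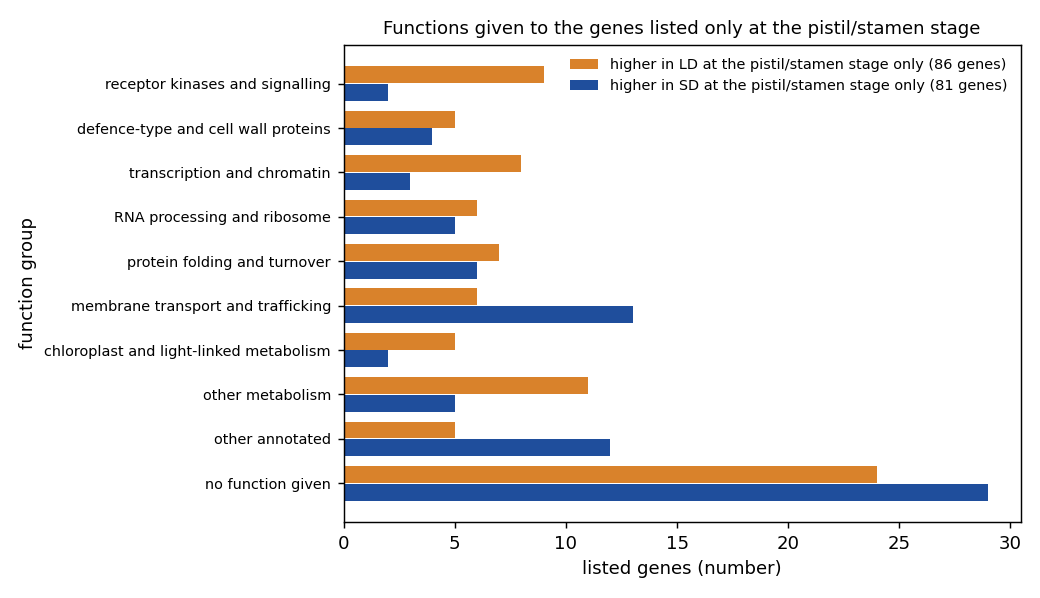
Number of listed genes (bars) in each function group, for genes listed at the pistil/stamen stage only that were higher in LD (orange, 86 genes) or higher in SD (blue, 81 genes). Signalling holds 9 and 2 genes, transcription and chromatin 8 and 3, and membrane transport 6 and 13.

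The 9 signalling members were annotated as receptor-like and other kinases, a kinase activator, a remorin, a calcium-binding protein and a leucine-rich repeat protein, and they held 5 of the 8 members whose SD and LD signals overlapped. Their folds ran from 2.06 to 3.68, with a median of 2.76. Of the genes in this group at this stage, 2 were higher in SD only here, and 1 each was listed at both stages as higher in LD and in SD.

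Wall-associated kinases of the receptor type sit in the plasma membrane and bind the cell wall. LOC_Os08g29020, wall-associated kinase-like 2, had signals of 118, 176 and 459.7 in SD and 753, 451 and 1016 in LD, a fold of 2.95. The SD array of repeat 3 lay just above the LD array of repeat 2, and without it the fold was 5.04. LOC_Os01g04450, annotated as OsWAK2 and as a receptor-like cytoplasmic kinase of the same family, had 36.3, 237 and 41.4 in SD and 351, 220.0 and 299 in LD, a fold of 2.76. Here SD repeat 2 was the array that stood at the level of LD, and without it the fold was 7.46.

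A pair of neighbours with consecutive locus numbers, LOC_Os07g43560 and LOC_Os07g43570, were both annotated as CRK10 or receptor-like protein kinase 4, a cysteine-rich receptor-like kinase. The first had 256, 318 and 478 in SD and 785, 454 and 934 in LD, a fold of 2.06. Signals of the second were 83.4, 65.0 and 232 in SD and 371, 223 and 457 in LD, a fold of 2.76, or 4.72 without SD repeat 3. In both genes repeat 3 was the highest array in SD and in LD, and LD repeat 2 was the lowest LD array, below SD repeat 3. Whether the probe sets of the pair also bind each other's transcript was not tested.

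LOC_Os06g48970, annotated as phosphoinositide-dependent protein kinase-1, a kinase that activates other kinases at the membrane, had 288, 293 and 686 in SD and 1392, 1391 and 1770.3 in LD. Its lowest LD signal was 2.03 times its highest SD signal, with a fold of 3.59 and a log2 difference of -1.96 (standard error 0.41). LOC_Os10g25674, a mps one binder kinase activator-like 1A protein, of a family that in yeast and animals partners growth-controlling kinases, had 108, 76.0 and 221 in SD and 348, 222 and 705 in LD, a fold of 3.15. Its groups all but touched, and repeat 3 was the highest array in both.

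LOC_Os10g36000, a remorin, a plant protein that attaches to the plasma membrane, had a fold of 3.68 and one of the widest spreads, with 18.9, 96.3 and 12.9 in SD and 273, 91.3 and 107 in LD. SD repeat 2 lay above LD repeat 2, and the fold was 9.88 without that SD array and 2.32 without LD repeat 1. With signals under 50 set to 50 it was 2.40. The calcium-binding EF-hand protein LOC_Os10g09850 did not overlap, at 99.3, 117 and 157 in SD and 403, 264 and 289 in LD, a fold of 2.56. The leucine-rich repeat protein AK059775 had a fold of 2.10 with no overlap.

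The 5 defence-type and cell wall members showed no overlap between SD and LD. Their folds ran from 2.07 to 3.30, and 4 genes of this group were higher in SD at this stage only. LOC_Os01g03180, annotated pr5 for a pathogenesis-related protein of the thaumatin-like family, was among the tightest, with 40.6, 36.0 and 42.7 in SD and 111, 97.6 and 85.3 in LD, a fold of 2.46 and a log2 difference of -1.30 (standard error 0.27). LOC_Os10g34614, annotated csAtPR5, had 65.0, 90.7 and 161 in SD and 215, 177 and 272 in LD, a fold of 2.10, and its repeat 3 was the highest array in both groups.

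Peroxidase 1 precursor, LOC_Os05g42000, belongs to the secreted enzymes that use hydrogen peroxide in the cell wall, and had 27.9, 46.1 and 29.2 in SD and 106, 124 and 66.0 in LD, a fold of 2.87. Both remaining members of this group were cupins of the RmlC type, proteins that share a barrel fold. Their annotation by itself names no role in defence or in the cell wall. LOC_Os12g42860 had 153, 268 and 705 in SD and 1405, 820.2 and 1484 in LD, a fold of 3.30 that became 5.89 without SD repeat 3. LOC_Os05g51470 had a smaller fold of 2.07, with all SD signals below its lowest LD signal.

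All 8 transcription and chromatin members had LD signals above every SD signal, with folds of 2.02 to 3.31 and a median of 2.74. In the same group 3 genes were higher in SD at this stage only, 3 were listed at both stages as higher in LD and 6 at both stages as higher in SD. LOC_Os12g06340, a homeodomain factor of the BEL1-like class, whose members pair with KNOX proteins in meristems and organs, had 120.2, 86.4 and 109.8 in SD and 590.5, 257 and 199.9 in LD. LD repeat 1 stood apart, and the fold of 3.31 was 2.16 without it.

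Among proteins that read chromatin, LOC_Os04g53170 carries a bromodomain, which binds acetylated histones. It had 248, 263 and 452 in SD and 981, 728 and 1354 in LD, a fold of 3.18. LOC_Os07g12910 carries a PHD finger, which binds histone tails, and had 55.5, 447 and 77.3 in SD and 606, 509 and 628 in LD, a fold of 3.01. Its SD repeat 2 lay close below LD while the other SD arrays were far lower, and without that array the fold was 8.75. The DNA binding protein LOC_Os01g44390 had 236, 402 and 262 in SD and 1174, 797 and 659 in LD, a fold of 2.92.

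The other 4 belong to families of plant transcription factors. LOC_Os05g51690 carries a CCT motif, a domain shared by CONSTANS and other regulators of photoperiodic flowering, and had 33.0, 60.2 and 92.8 in SD and 147, 209 and 119 in LD, a fold of 2.55. OsYABBY1, LOC_Os07g06620, of a plant transcription factor family that in *Arabidopsis* acts in the polarity of lateral organs, had 77.6, 118 and 71.3 in SD and 283, 216 and 134 in LD, a fold of 2.37. HAP3b, AY062182, is a subunit of the heterotrimeric complex that binds CCAAT boxes, and had 23.0, 51.6 and 52.9 in SD and 100.4, 99.1 and 76.9 in LD, a fold of 2.17. The standard errors of the log2 differences of these 3 genes were 0.45, 0.39 and 0.40. The GATA zinc finger protein LOC_Os12g42970 had the lowest fold of the group, 2.02, with 34.1, 50.4 and 105 in SD and 124, 152 and 107 in LD, so that SD repeat 3 almost met LD repeat 3.

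The 6 RNA processing and ribosome members had folds of 2.05 to 5.89 and held some of the widest spreads. LOC_Os03g16450, the pentatricopeptide repeat protein PPR868-14, belongs to a family that binds RNA in mitochondria and chloroplasts. Its signals were 6.57, 68.3 and 22.5 in SD and 70.4, 169 and 335 in LD, a fold of 5.89 with a log2 difference of -2.87 and the largest standard error of all members, 0.91. The fold was 13.2 without SD repeat 2 and 3.68 without LD repeat 3, and it was 3.41 with signals under 50 set to 50. LOC_Os07g10810, a putative auxiliary factor of the U2 snRNP, the particle that recognises the branch site of introns, had 9.93, 38.8 and 50.2 in SD and 261, 162 and 49.8 in LD, a fold of 4.78. LD repeat 3 lay at the level of SD repeat 3, so the groups overlapped, and with signals under 50 set to 50 the fold was 3.15.

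LOC_Os10g28600, annotated as a PPR protein PGR3, a name that in *Arabidopsis* belongs to a chloroplast RNA-binding protein, had 44.4, 43.0 and 119 in SD and 177, 217 and 203 in LD. Its fold was 2.90, or 4.55 without SD repeat 3. LOC_Os01g17279, histone mRNA exonuclease 1, which in animals trims histone transcripts, had 161, 261 and 318 in SD and 692, 576 and 620.4 in LD, a fold of 2.55 with a clear gap between the groups. The TrmH family RNA methyltransferase LOC_Os08g39600 and the ribosome biogenesis protein NIP7, LOC_Os07g47420, had folds of 2.11 and 2.05 without overlap. Of this group, 5 genes were higher in SD at this stage only.

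**Figure D4:**
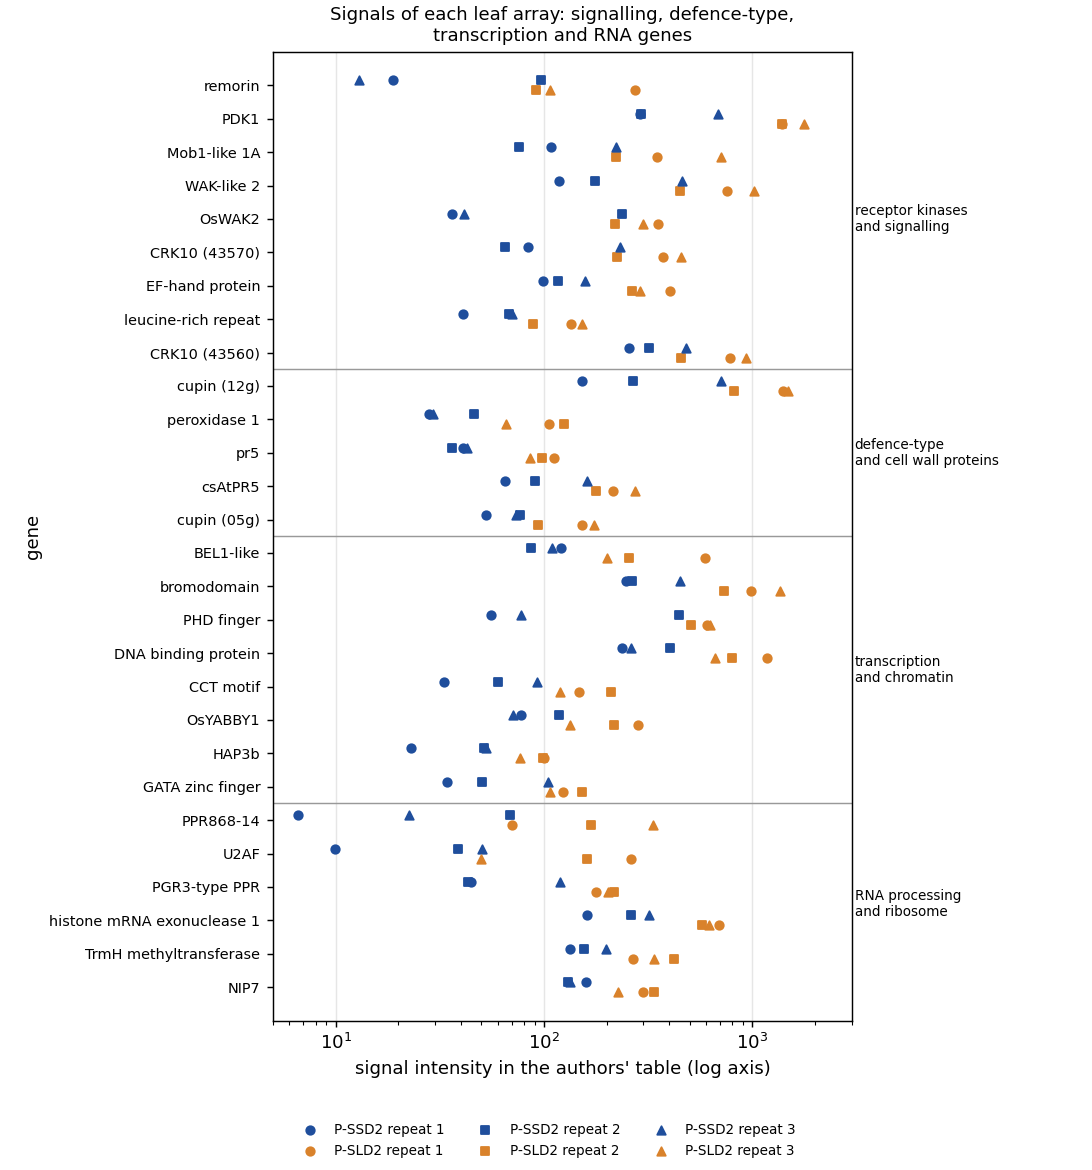
Signal intensity (log axis) on each of the 3 P-SSD2 arrays (blue) and 3 P-SLD2 arrays (orange) for the genes of 4 function groups, with a marker shape for each repeat. The groups overlap in 5 of 9 signalling genes and in the U2 auxiliary factor, and in no defence-type or transcription gene.

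The 7 members of protein folding and turnover did not overlap between SD and LD. Their folds ran from 2.01 to 4.04, and 6 genes of this group were higher in SD at this stage only. LOC_Os03g21810, annotated as nardilysin or insulin-degrading enzyme, a metallopeptidase, had 37.2, 33.6 and 166 in SD and 373, 267 and 318 in LD. The fold of 4.04 was 9.01 without SD repeat 3, the array that stood apart. The ubiquitin family protein LOC_Os07g31540 was tight in both groups, with 43.1, 37.0 and 41.1 in SD and 119.6, 114 and 129.8 in LD, a fold of 2.99 and a standard error of 0.26 on the log2 scale.

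The annotated calmodulin-binding heat-shock protein LOC_Os06g14490 had 75.2, 74.3 and 83.1 in SD and 188, 215 and 118 in LD, a fold of 2.24. LOC_Os05g35340, annotated as the mitochondrial import protein MAS5, in yeast a chaperone of the DnaJ type, had 31.2, 48.2 and 35.7 in SD and 93.4, 60.7 and 103 in LD, a fold of 2.23. AK099085, a homologue of the AAA-type ATPase CDC48 that extracts ubiquitinated proteins, had 105, 100.5 and 244 in SD and 327, 302 and 276 in LD. SD repeat 3 was again the high array of that gene, whose fold was 2.01. The thioredoxin family protein LOC_Os04g35150, a thiol redox protein, and the F-box protein LOC_Os03g11790, of the family that selects substrates for ubiquitin ligases, had folds of 2.14 and 2.02.

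Membrane transport and trafficking had 6 members, none overlapping, with folds of 2.04 to 3.79. The purine permease LOC_Os04g49757, named for ATPUP11 of *Arabidopsis*, had 165, 82.4 and 147 in SD and 340.1, 476 and 679 in LD, a fold of 3.79 with the lowest LD signal 2.06 times the highest SD signal. Choline transporter-like protein 2, LOC_Os04g58504, had 29.4, 13.5 and 49.3 in SD and 88.8, 71.8 and 63.8 in LD, a fold of 2.43. All of its SD signals lay under 50, and with these set to 50 the fold was 1.496. LOC_Os04g37600, a phosphate carrier, a class of proteins that moves phosphate into mitochondria, had 42.6, 65.9 and 90.3 in SD and 167, 186 and 118 in LD, a fold of 2.37. In both genes the closest SD and LD signals differed by less than the SD signals among themselves.

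LOC_Os02g52920, a transmembrane protein with an emp24 domain, of the family that sorts cargo in the early secretory pathway, had 48.5, 47.3 and 43.7 in SD and 107, 136 and 84.0 in LD, a fold of 2.35. Its SD signals lay within a narrow range. Oligopeptide transporter 9, LOC_Os06g03560, and the tonoplast water channel TIP2.1, LOC_Os02g44080, had folds of 2.17 and 2.04. In TIP2.1 the geometric means differed by less than 2-fold, with a log2 difference of -0.94 (standard error 0.37), the one member of the 86 for which this was so.

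The 5 members of chloroplast and light-linked metabolism were higher in LD in a narrow band of folds, 2.13 to 2.55, without overlap. The leaves of both day lengths were taken at night. LOC_Os12g12370, an outer envelope protein, had 46.6, 156 and 97.2 in SD and 263, 275 and 227 in LD, a fold of 2.55. LOC_Os01g58790, the 4-diphosphocytidyl-2-C-methyl-D-erythritol kinase of the plastid isoprenoid pathway, had 200.3, 170.4 and 213 in SD and 392, 625 and 279 in LD, a fold of 2.22. In the first the spread lay mainly among the SD arrays, and in the second among the LD arrays.

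The peroxisomal 2-hydroxy-acid oxidase AK062433, an enzyme type that includes the glycolate oxidase of photorespiration, had 322, 134 and 233 in SD and 749.5, 346 and 428 in LD, a fold of 2.21. Oxygen evolving enhancer protein 3, LOC_Os02g36850, a lumen subunit of photosystem II, had 319, 502 and 702 in SD and 1574, 784 and 909 in LD, a fold of 2.14. LD repeat 1 was the highest array in both genes. Ribose-5-phosphate isomerase, LOC_Os03g56869, which serves the Calvin cycle and the pentose phosphate pathway, was the most even of the group, with 159, 207 and 220.2 in SD and 469, 360.2 and 418 in LD, a fold of 2.13 and a standard error of 0.29 on the log2 scale. In this group 2 genes were higher in SD at this stage only.

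Other metabolism was the largest annotated group, with 11 members, folds of 2.04 to 3.61 and a median of 2.31, and 10 of the 11 did not overlap. LOC_Os04g41200, a lipase family protein, had the widest gap of the annotated members, with 72.5, 69.1 and 80.4 in SD and 277, 261 and 263 in LD. Its fold was 3.61 and its log2 difference -1.85 (standard error 0.26). The lipid binding protein LOC_Os06g48320 had 35.5, 36.4 and 85.8 in SD and 143, 157 and 166 in LD, a fold of 2.95, with SD repeat 3 apart from the other SD arrays.

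Aminocyclopropane-1-carboxylate oxidase 1, LOC_Os09g27750, catalyses the last step of ethylene synthesis. It had 306, 71.8 and 65.1 in SD and 412, 379.9 and 405 in LD, a fold of 2.70. The LD signals were nearly equal, SD repeat 1 stood far above the other SD arrays, and without it the fold was 5.83. The carboxy-lyase LOC_Os10g33900 had 129, 189 and 187 in SD and 703, 362 and 322 in LD, a fold of 2.75, with LD repeat 1 the highest.

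LOC_Os01g74520, annotated as COQ5, a methyltransferase of ubiquinone synthesis, had 109, 113 and 106 in SD and 226, 324 and 312 in LD, a fold of 2.63 with the SD arrays within a few units of each other. The alcohol dehydrogenase transcript D21273 had 31.4, 29.5 and 44.4 in SD and 58.0, 50.2 and 122 in LD, a fold of 2.18 in which LD repeat 3 stood apart. Cell-wall invertase 7, LOC_Os09g08072, which splits sucrose outside the cell, had 81.0, 68.0 and 135 in SD and 197, 263 and 133 in LD, a fold of 2.09, and was the member of the group whose groups overlapped. The dienelactone hydrolase family protein LOC_Os05g35470, the phosphoserine phosphatase LOC_Os11g41160, which makes serine, the heparan-alpha-glucosaminide N-acetyltransferase LOC_Os04g33200 and the cytochrome P450 CYP709C1, NM_001056739, had folds of 2.31, 2.28, 2.12 and 2.04.

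**Figure D5:**
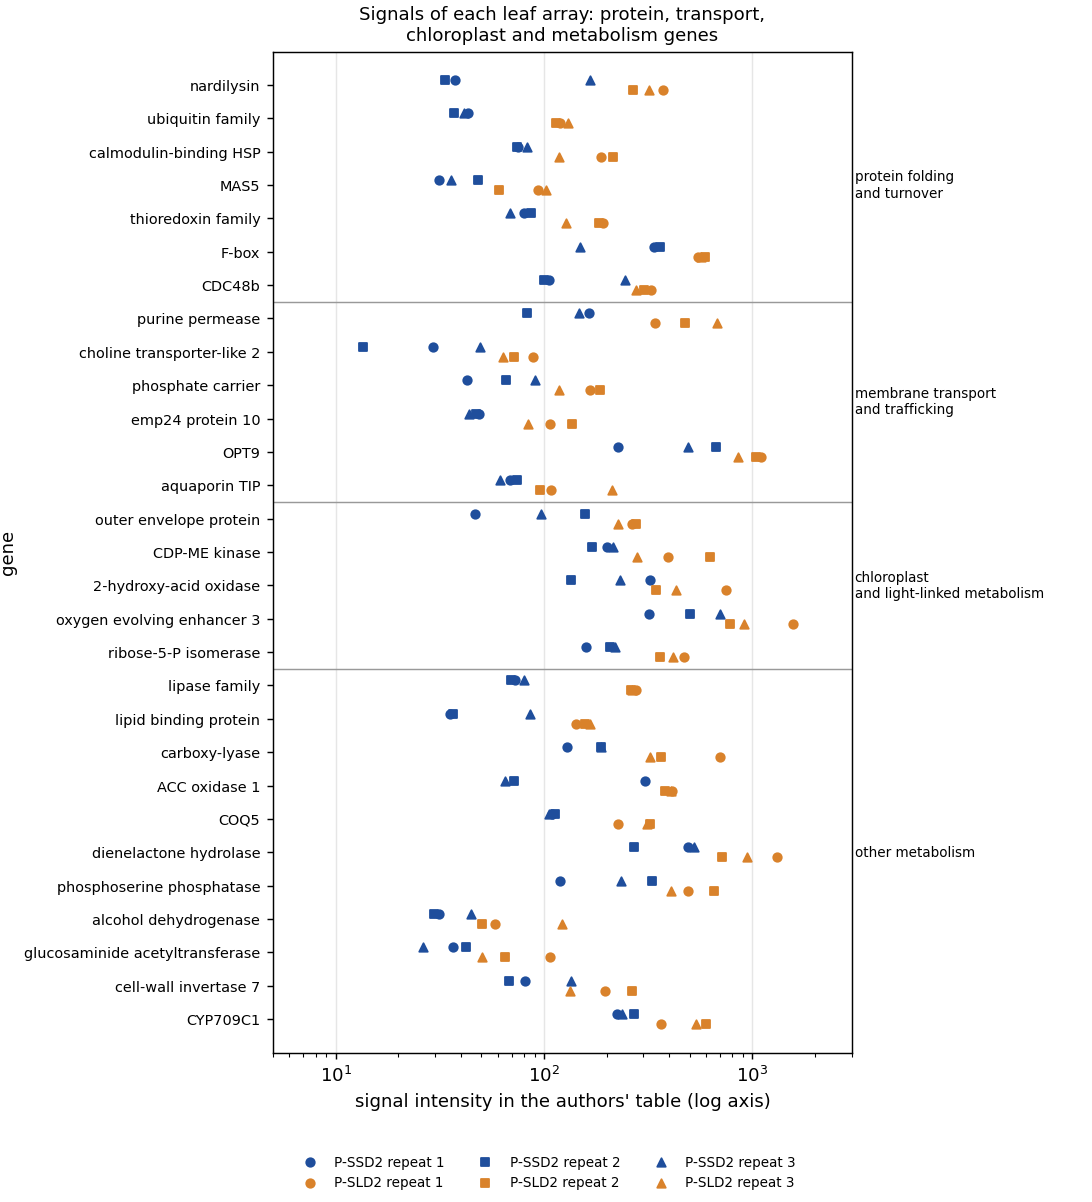
Signal intensity (log axis) on each of the 3 P-SSD2 arrays (blue) and 3 P-SLD2 arrays (orange) for the genes of 4 further function groups, with a marker shape for each repeat. Cell-wall invertase 7 is the one gene shown whose groups overlap, and the lipase family protein has the widest gap.

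The 5 other annotated members had folds of 2.04 to 2.48 without overlap. The transposon protein LOC_Os03g40070 had 38.8, 76.8 and 189 in SD and 205, 299 and 250.2 in LD, a fold of 2.48, or 4.35 without SD repeat 3. The metal ion binding protein LOC_Os11g05010 had 28.3, 30.0 and 105 in SD and 151, 128 and 107 in LD, a fold of 2.37, or 4.42 without the same array. In both genes SD repeat 3 reached nearly to LD. Surfeit locus protein 2, LOC_Os04g40430, had 61.2, 71.8 and 49.0 in SD and 114, 133 and 174 in LD, a fold of 2.31. The cell division inhibitor LOC_Os02g58790 had 184, 675 and 439 in SD and 1252, 819 and 908 in LD, a fold of 2.30. The DNA-damage-inducible protein F AK073429 had a fold of 2.04.

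The 24 members without a function had folds of 2.00 to 6.03, with a median of 2.43, and 23 of them did not overlap. LOC_Os02g03670 had 39.6, 37.7 and 33.0 in SD and 200.3, 142 and 323 in LD, a fold of 6.03, or 4.43 with signals under 50 set to 50. Its lowest LD signal was 3.58 times its highest SD signal, and its log2 difference was -2.51 (standard error 0.37). LOC_Os03g59250 had 25.7, 23.1 and 76.2 in SD and 222, 231 and 248 in LD, a fold of 5.61, or 9.58 without SD repeat 3. For LOC_Os11g05550 the signals were 43.7, 38.9 and 94.4 in SD and 361, 211 and 298 in LD, a fold of 4.92. For LOC_Os12g25180 they were 52.1, 70.3 and 124 in SD and 437, 209 and 508 in LD, a fold of 4.69.

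These 4 genes stood well clear of SD in every LD array, and in 3 of them SD repeat 3 was the highest SD array. NM_001074963 had 43.3, 28.8 and 73.4 in SD and 172, 81.9 and 266 in LD, a fold of 3.57. LOC_Os12g33289 and LOC_Os11g04920 were dim but even, the first with 20.1, 16.6 and 18.2 in SD and 63.7, 57.0 and 70.0 in LD, a fold of 3.47. The second had 18.2, 16.4 and 16.4 in SD and 55.7, 51.5 and 56.0 in LD, a fold of 3.20, the lowest mean signals of all members in both day lengths. With signals under 50 set to 50 these folds were 1.27 and 1.09, so they rest on how such dim signals are read.

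In 5 further genes without a function 1 SD array stood apart. AK065472 had 271, 61.1 and 79.8 in SD and 309.8, 266 and 394 in LD, with an overlap through SD repeat 1, and its fold was 2.36, or 4.59 without that array. AU165226 had 49.0, 62.7 and 188 in SD and 236, 227 and 235 in LD, and its fold of 2.33 was 4.17 without SD repeat 3. AK100879 had 42.4, 41.4 and 115 in SD and 142, 166 and 133 in LD, and its fold of 2.21 was 3.51 without the same array. In the other two the high array was SD repeat 2. LOC_Os11g14120 had 42.7, 148 and 54.4 in SD and 172, 176 and 181 in LD, with a fold of 2.16, or 3.64 without it. LOC_Os08g18870 had 15.8, 45.5 and 19.5 in SD and 54.9, 57.9 and 58.3 in LD, with a fold of 2.12, or 3.23 without it. All of its SD signals lay under 50, and with these set to 50 its fold was 1.14. In all 5 genes the LD signals varied less than the SD signals. The remaining 12 genes without a function had folds between 2.00 and 2.75 and did not overlap. Among them, LOC_Os05g46470 had 19.8, 43.9 and 35.4 in SD and 106, 74.4 and 70.7 in LD, and its fold of 2.53 was 1.67 with signals under 50 set to 50.

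Counted by array, LD repeat 2 was the lowest LD array in 6 of the 8 overlapping members and LD repeat 3 in the other 2. Without LD repeat 2, 84 of the 86 members did not overlap, a count that leaving out an array can only keep or raise. Across the 86 members, the log2 deviation of an SD array from its group mean correlated with that of the LD array of the same number at 0.02, 0.12 and 0.10 for repeats 1 to 3, a description across genes, which are not independent replicates. Repeat 3 was the highest array in both day lengths in 16 members, among them both CRK10 genes, wall-associated kinase-like 2 and phosphoinositide-dependent protein kinase-1.

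The members were spread over the genome. By their locus identifiers, 72 could be placed on a chromosome, and 14 carry transcript identifiers without a locus. The placed members ran from 2 of 6 listed genes on chromosome 9 to 9 of 14 on chromosome 7. They were 6 of 26 listed genes on chromosome 3 and 7 of 11 on chromosome 12, and these shares were not tested. Within 20 steps of the locus numbering there were 4 pairs of members. Besides the CRK10 neighbours these were LOC_Os05g35340 with LOC_Os05g35470, LOC_Os11g04920 with LOC_Os11g05010, and LOC_Os12g42860 with LOC_Os12g42970. The pairs beside CRK10 joined unlike annotations. The phosphoserine phosphatase LOC_Os11g41160 lay next in number to a listed gene that was higher in SD, so adjacent genes were also listed in opposite directions.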

How the data were processed

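Each of the 12 arrays measured leaf RNA of 1 sample, and the labels' stage and day length put the samples into 4 groups of 3 biological repeats. The authors scanned the arrays with GCOS 1.4, as the submitters' processing notes name it, and their methods describe invariant-set normalization in dChip and background removal from 5% of the perfect-match probes. The deposited values are linear signal intensity, for listed genes in 1 table per stage and for 57381 probe sets in a table of all arrays. The tables per stage also hold the authors' fold change and P value, which were not used. Only gene identifiers were read from the table of the glume stage. The sources used here do not say whether dChip preceded the probe set table.

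The log2 signals of the 201 listed genes were fitted by limma 3.58.1 under R 4.3.3 with day length as the term (lmFit, then eBayes), and only differences and standard errors were taken from it. The fit was tested on simulated data. For the share over all probe sets, the 187 probe sets of controls and reporters were dropped. The array medians of the linear signals then ran from 6.92 to 9.18, and the log2 signals of the 12 arrays were therefore quantile normalized. A probe set was kept (25360 were) if on 3 or more arrays it reached that array's 60th percentile. No filter on low signals was applied to the members. The number of arrays limits the precision.

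Same-numbered arrays of P-SSD2 and P-SLD2 deviated together over the probe sets (correlations of 0.22, 0.29 and 0.51), so repeat numbers were taken to pair the arrays. This rests on the data, since no source names a shared batch or day, and no correlation between unlike-numbered arrays is given beside it. The standard errors given for single genes are from the fit without this pairing. Over the members their median was 0.40, against 0.37 with the repeat number as a block.

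The members, the function groups and the rule for naming genes were chosen with earlier results of these data known. Every member with a function is named, and the 6 signals are given for up to 4 members of each group with the lowest ratio of SD to LD, for ratios of at most 0.3, and where 1 array was more than 2 times the next. Some further members have their signals beyond this rule, chosen after the values were seen. Function groups were assigned from the annotations of the table, which for the cupins in the defence-type group do not name such a role. Locus identifiers are those of the table, and neither the 72 of them nor the 4 RefSeq accessions among the members matched the RefSeq gene table of assembly ASM3414082v1. No sequences are shown. The alternatives were other averages, a pseudocount of 32, a floor of 50, other scalings of the probe sets, the repeat number as a block, and leaving out each array.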

Additional observations from a re-analysis of the deposited data

How the results depend on the processing

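The members were set by the rule and by 6 arrays, so alternatives show how firmly each value sits on those arrays. A ratio of at most 0.5 was kept by 73 of the 86 members with medians, by 85 with geometric means, and by 62 to 78 when 1 array was left out, fewest without P-SSD2 repeat 1. The count of members without overlap ran from 78 to 84 with 1 array left out, which by construction cannot lower it. It was 78 with a floor of 50, an alternative chosen after seeing the data. With the repeat number as a block, 82 members were lower in SD in every pair, and the median standard error was 0.37. The block leaves the log2 differences as they are by construction. The median log2 difference was -1.04 with a pseudocount of 32, -1.21 with the floor, and -1.47 to -1.21 with 1 array left out. The median standard error was 0.38 to 0.47 with 1 array left out. All 86 folds stayed above 1 under every alternative run, which in the 78 members without overlap was fixed by construction. Leaving out 1 array moved 19 folds by over 1.5 times, 10 of them without P-SSD2 repeat 3 and 6 without P-SSD2 repeat 2. The floor moved 8 folds by over 1.5 times, down to 1.09 in LOC_Os11g04920, and medians moved 13.

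The share of all probe sets with LD signals above every SD signal was 4.84% with quantile normalization, 9.22% with signals as deposited, 5.09% with arrays centred on their median and 5.13% without the filter on dim probe sets. With 1 array left out it ran from 7.74% to 12.6%, where fewer arrays make separation easier by construction. A fit of the members on the probe set table, with or without the block, was not run because probe sets are not paired with genes. Dim signals also limit the folds, since the SD mean lay under 50 in 21 members.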
